A study of Mus musculus with 2 samples.

Results

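The genes described here make cholesterol, take it up, move it, store it and sense it. They are 38 genes chosen by name from the biochemistry of the pathway, and all 38 had reads, out of 16745 annotated genes with reads in these data. Adrenal glands of C57BL/6J mice from The Jackson Laboratory were read by long-read RNA sequencing, in which 1 read follows 1 cDNA molecule, in a single group of 2 libraries numbered as biological replicates 1 and 2. A description in the labels calls the tissue male, the sex field reads not collected, and the age is unknown. No treatment, genotype or time was compared. Both biosamples refer to 1 donor entry and no culture or cell sort was involved, so the comparison between them is a comparison of 2 libraries of whole gland, and their spread may be technical.

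Cholesterol is built in steps from acetyl-CoA, through mevalonate and isoprenoid diphosphates to squalene, then to lanosterol and at last to cholesterol. The amount made is set by a sensor in the endoplasmic reticulum. When sterol is low there, Scap escorts the SREBP transcription factors to the Golgi, where a pair of proteases release the part that enters the nucleus; when sterol is high, Insig proteins hold Scap back. The adrenal cortex uses cholesterol as the starting material of its steroid hormones and draws it from synthesis, from lipoproteins and from a store of cholesterol esters.

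Replicate 1 held 848782 reads and replicate 2 held 545229. A level is given as reads per 1000000 reads of the library (CPM), and 1 read was worth 1.18 CPM in replicate 1 and 1.83 CPM in replicate 2. The libraries did not read all lengths alike: the annotated length of known transcripts had a median of 1648 bases per read in replicate 1 and 2740 bases in replicate 2. Markers of the steroid cortex (Star, Cyp11a1, Cyp21a1, Nr5a1) took 3.74% of reads in replicate 1 and 6.12% in replicate 2, and those of chromaffin cells (Th, Dbh, Chga, Pnmt) 0.621% and 0.866%. In the tests described below, of the 4 cortex markers 4 were lower in replicate 1 before adjustment for length, and 2 were higher and 2 lower after it. Of the 4 chromaffin markers 2 were higher and 2 lower before it, and 1 higher and 3 lower after it. Over all genes tested, 64.4% passed before it and 40.9% after it. The hepatocyte markers Alb, Apoa1, Ttr and Serpina1a had 0 reads in either library, which allows up to 3.53 CPM in replicate 1 and 5.50 CPM in replicate 2 for each.

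Together the 38 genes took 0.665% of all reads in replicate 1 (5644 reads, exact 95% interval 0.648% to 0.682%) and 0.896% in replicate 2 (4885 reads, 0.871% to 0.921%), a mean of 0.780% ± 0.163 (SD, n = 2). Apoe alone held 40.2% of the members' reads in replicate 1 and 3.36% in replicate 2. Without Apoe the share was 0.398% in replicate 1 and 0.866% in replicate 2. By step, the conversion of lanosterol to cholesterol took 0.0977% of reads in replicate 1 and 0.293% in replicate 2, and acetyl-CoA supply 0.0862% and 0.223%. The mevalonate step took 0.0621% in replicate 1 and 0.0908% in replicate 2, and squalene to lanosterol 0.0184% and 0.0350%. Sterol sensing took 0.0221% in replicate 1 and 0.101% in replicate 2, ester turnover 0.0624% and 0.0987%, and uptake, transfer and efflux 0.316% and 0.0536%. Uptake, transfer and efflux was the one step with the larger share in replicate 1, and Apoe and Npc2 held most of its reads there. In whole tissue, fewer cells of a type and less RNA per cell cannot be told apart.

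**Figure D1:**
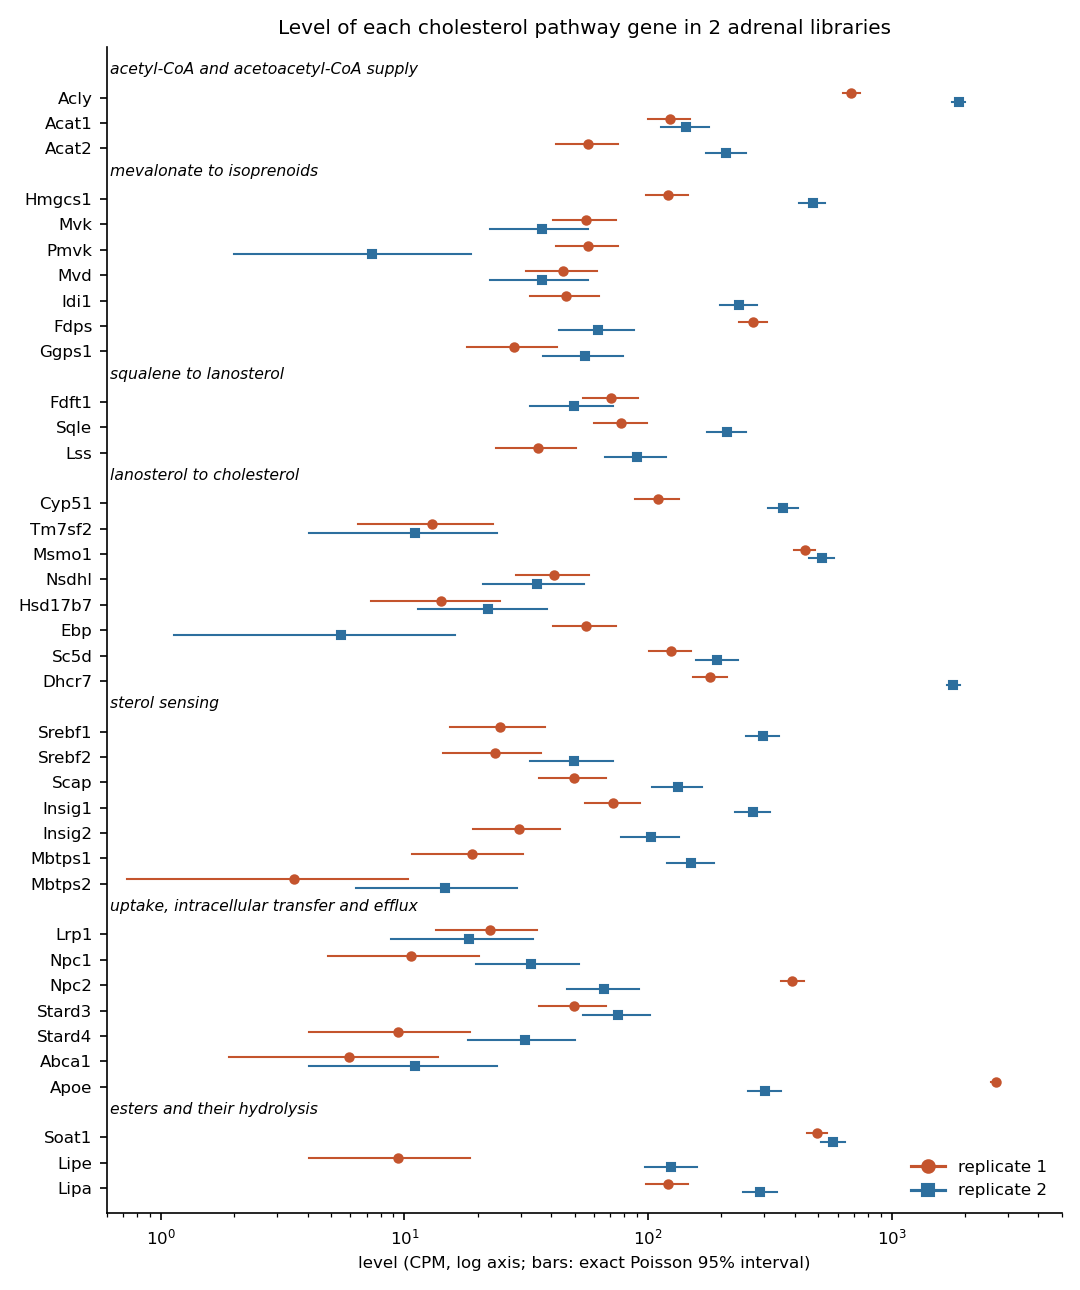
Level of the 38 genes in replicate 1 (circles) and replicate 2 (squares), in CPM on a log axis, grouped by pathway step; bars are exact Poisson 95% intervals of the counting error. Dhcr7, Srebf1 and Lipe lie far lower in replicate 1, and Apoe, Npc2, Ebp and Pmvk far higher.

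Each gene's reads were set against all other reads of the library in Fisher's exact test, two-sided and adjusted by Benjamini-Hochberg over all 9879 genes with at least 10 reads. Of the 38 genes, 5 were higher in replicate 1 (Pmvk, Fdps, Ebp, Npc2 and Apoe), 21 were lower and 12 did not pass. Among all genes tested 64.4% passed, 27.9% as higher in replicate 1 and 36.6% as lower, so a call between these libraries is the common outcome. The median log2 ratio of replicate 1 over replicate 2 was -0.99 over the members and -0.38 over all genes tested. Under TMM scaling, which raises log2 ratios by up to 0.43, 7 members were higher, 15 lower and 16 did not pass. Of all genes tested, 33.8% were higher in replicate 1 at that scaling and 27.6% lower. Mvk and Fdft1 were then higher in replicate 1, and the calls of Ggps1, Sc5d, Srebf2, Mbtps2, Npc1 and Stard4 as lower were lost.

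The calls followed transcript length. Of the 7 members under 2000 bases, 4 were higher in replicate 1 and 0 lower, where 63.1% of all genes of that length were higher and 7.56% lower. Of the 30 members of 2000 bases or more, 1 was higher and 21 lower, where 10.2% of such genes were higher and 54.3% lower. Once the median log2 ratio of the 500 genes nearest in length was taken off each gene, 37 members could be tested, of which 7 were higher in replicate 1, 8 lower and 22 did not pass, beside 40.9% of all genes passing. Higher then were Acat1, Fdft1, Ebp, Sc5d, Soat1, Npc2 and Apoe, and lower were Acly, Acat2, Hmgcs1, Idi1, Dhcr7, Srebf1, Mbtps1 and Lipe. Of the calls before, 11 had the same direction, 14 were lost and that of Sc5d turned. The log2 ratio after this step is called length-adjusted.

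**Figure D2:**
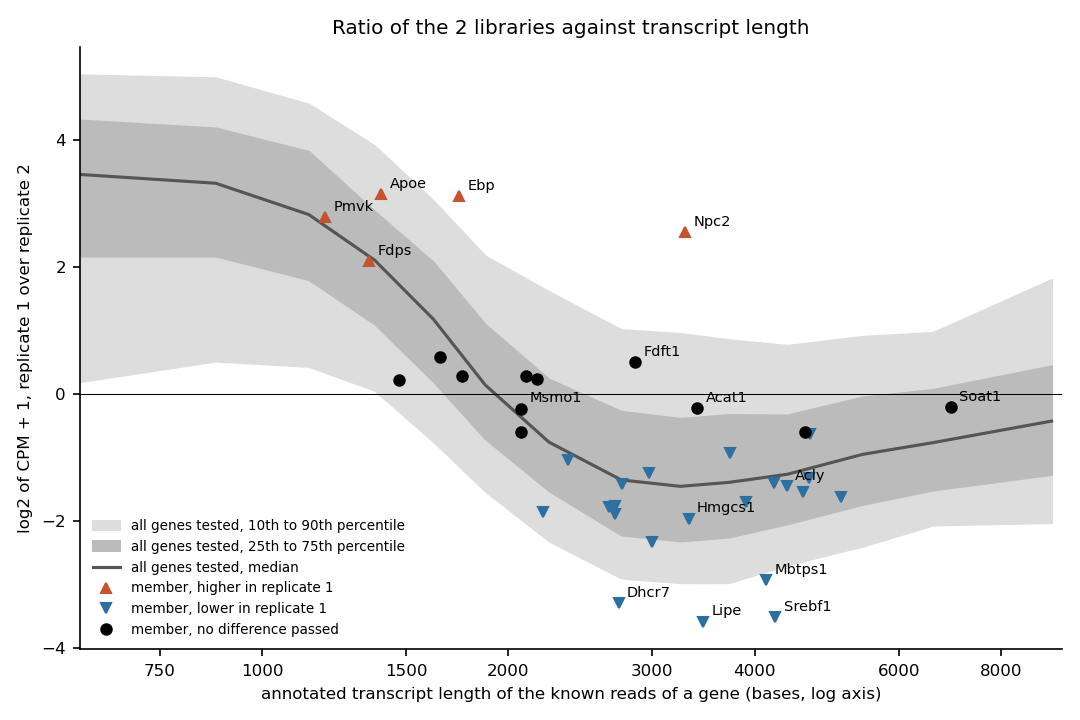
Log2 ratio of CPM + 1, replicate 1 over replicate 2, against annotated transcript length in bases on a log axis; grey bands and line are percentiles and median of all genes tested, triangles and circles are members. Apoe, Ebp and Npc2 lie above the 75th percentile of genes of their length, and Dhcr7, Srebf1, Mbtps1 and Lipe below the 10th.

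Because lengths were read unequally, genes are compared with each other by place: the percent of the 500 genes nearest in length that had fewer reads. The median place of the 37 members with a length was 75.2 in replicate 1 and 84.2 in replicate 2, and 10 members were above place 90 in both libraries. Mbtps2 was the one member below place 50 in both, at 23.0 and 34.8. Its length, 2657 bases, rests on 1 known read in replicate 1 and 2 in replicate 2. The length of Lrp1, 2099.5 bases, rests on 1 known read in each library. For Srebf2 (2368 bases), 7 of 7 known reads in replicate 1 and 7 of 9 in replicate 2 were of a retained-intron form.

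Acetyl-CoA supply starts with Acly, ATP citrate lyase, which splits citrate in the cytosol to give acetyl-CoA (chromosome 11, 100476353 to 100528000, minus strand, GRCm38). Acly had 580 reads in replicate 1, 683 CPM, and 1025 reads in replicate 2, 1880 CPM (mean 1282 ± 846 CPM, SD, n = 2). It was at place 99.8 in both libraries. It was lower in replicate 1, at 0.363 times the CPM of replicate 2 (log2 -1.46, adjusted p = 3.35e-87, Fisher's exact test), and the length-adjusted log2 ratio was -0.18 (adjusted p = 0.0433, exact binomial test). Of the thiolases that join acetyl units, the mitochondrial Acat1 had 104 and 78 reads (123 and 143 CPM) and its ratio did not pass (log2 -0.22). It was higher in replicate 1 with length adjusted (log2 1.29, adjusted p = 1.76e-08, exact binomial test) and lower with known models alone (log2 -0.54, adjusted p = 0.0282, Fisher's exact test). The cytosolic Acat2 had 48 and 114 reads (56.6 and 209 CPM) and was lower in replicate 1 on both scales (log2 -1.87, length-adjusted -1.17). Its near copy Acat3 had 2 and 1 reads.

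Acly was read in forms with and without a cassette exon of 30 bases, that is 10 codons, shown here in capitals between the last and first 15 bases of its neighbours (chromosome 11, 100503160 to 100503189, minus strand).
Acly-203 cassette exon: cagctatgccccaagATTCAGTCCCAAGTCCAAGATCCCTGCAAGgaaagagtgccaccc
The exon was present in 114 of the 450 reads that crossed this place in replicate 1 (25.3%, exact 95% interval 21.4% to 29.6%) and in 272 of 893 in replicate 2 (30.5%, 27.5% to 33.6%). The intervals overlapped, and skipping was the more common outcome in both libraries. The most used model, Acly-201, which lacks the exon, held 314 of 435 full-length reads in replicate 1 (72.2%) and 478 of 792 in replicate 2 (60.4%; adjusted p = 0.000966, Fisher's exact test). With known models alone this share did not pass (adjusted p = 0.0576).

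Hmgcs1 makes HMG-CoA for the mevalonate step and is a textbook SREBP target (chromosome 13, 119690379 to 119708260, plus strand). It had 102 reads in replicate 1, 120 CPM, and 258 reads in replicate 2, 473 CPM. It was lower in replicate 1 (log2 -1.97, adjusted p = 1.50e-34, Fisher's exact test; length-adjusted log2 -0.52, adjusted p = 0.00582, exact binomial test), at place 93.2 and 97.6. Its RefSeq promoter window (GRCm38.p6, 250 bases before to 50 after the start; chr13:119690101-119690400, plus strand) is shown because it held the one match to the sterol regulatory element core TCACNCCAC among the synthesis genes, which begins 137 bases before the start. Capitals mark matches on either strand to that core, to the CCAAT box, to the GC box GGGCGG, and to the E-box CACGTG; matches of different motifs may overlap.
Hmgcs1 promoter: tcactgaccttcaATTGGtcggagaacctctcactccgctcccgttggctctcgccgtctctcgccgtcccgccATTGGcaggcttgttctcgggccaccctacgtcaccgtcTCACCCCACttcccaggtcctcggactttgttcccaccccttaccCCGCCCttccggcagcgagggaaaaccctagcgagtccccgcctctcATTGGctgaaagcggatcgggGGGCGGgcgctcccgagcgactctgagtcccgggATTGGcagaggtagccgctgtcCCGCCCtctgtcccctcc
Windows were matched for 32 of the 38 genes, 43 windows in all; Acat1, Fdft1, Fdps, Npc1, Sqle and Stard4 were not matched. The sterol core was in those of 2 genes, Hmgcs1 and Stard3, that is in 4.65% of the members' windows against 1.24% of all 32851 windows. CCAAT was in 58.1% against 37.4%, GGGCGG in 74.4% against 35.7% and CACGTG in 18.6% against 7.15%. A match is a match of letters, and binding was not measured.

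Hmgcs1 reads split over a second exon in the 5′ leader: it was present in 37 of 85 reads in replicate 1 (43.5%) and in 101 of 245 in replicate 2 (41.2%, mean 42.4% ± 1.63, SD, n = 2). The most used model, of 10 exons and without it, held 51.9% of full-length reads in replicate 1 and 56.7% in replicate 2, and the share did not differ past the threshold. Both forms hold the same coding sequence of HMG-CoA synthase in the models counted as complete, 83 of 102 reads and 235 of 258.

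The other mevalonate genes differed from each other in how the libraries read them. Mvk, mevalonate kinase, had 47 and 20 reads (55.4 and 36.7 CPM), and Mvd, mevalonate diphosphate decarboxylase, 38 and 20 (44.8 and 36.7 CPM); neither ratio passed at this scaling. Pmvk, phosphomevalonate kinase, had 48 and 4 reads (56.6 and 7.34 CPM) and was higher in replicate 1 (log2 2.79, adjusted p = 1.57e-06, Fisher's exact test), with a length-adjusted log2 ratio of 0.10 that did not pass. Idi1, isopentenyl diphosphate isomerase, had 39 and 129 reads (45.9 and 237 CPM) and was lower in replicate 1 on both scales (log2 -2.34, length-adjusted -0.95). Fdps, farnesyl diphosphate synthase, had 229 and 34 reads (270 and 62.4 CPM) and was higher in replicate 1 (log2 2.10, adjusted p = 6.74e-20, Fisher's exact test), with a length-adjusted log2 ratio of -0.10 that did not pass. Ggps1, which makes the geranylgeranyl diphosphate used to anchor proteins, had 24 and 30 reads and was lower in replicate 1 (log2 -0.94) before adjustment for length.

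Fdps-201, the form of 1237 bases with 10 exons, held 171 of 194 full-length reads in replicate 1 (88.1%) and 13 of 24 in replicate 2 (54.2%; adjusted p = 0.00341, Fisher's exact test). Fdps-205, a single-exon retained-intron form of 2953 bases, took 5 reads in replicate 1 and 8 in replicate 2. The shorter form thus held the larger share in the library that read more short transcripts; the part of length in this difference was not tested. Gm43738 overlaps Fdps on the same strand and had 7 and 0 reads. Mvk was read with a coding exon that begins at either of 2 acceptor sites, and the bases added by the upstream site are in capitals (chromosome 5, 114450241 to 114450276, plus strand).
Mvk-202 added bases: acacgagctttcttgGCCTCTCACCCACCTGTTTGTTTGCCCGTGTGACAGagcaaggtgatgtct
The 36 added bases were in 11 of 45 reads in replicate 1 (24.4%, exact 95% interval 12.9% to 39.5%) and in 6 of 20 in replicate 2 (30.0%, 11.9% to 54.3%).

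From farnesyl diphosphate to lanosterol there are 3 members. Fdft1, squalene synthase, had 60 reads in replicate 1, 70.7 CPM, and 27 in replicate 2, 49.5 CPM. It did not pass before adjustment for length and was higher in replicate 1 after it (log2 1.95, adjusted p = 7.62e-09, exact binomial test). Sqle, squalene epoxidase, a rate-limiting enzyme, had 66 and 115 reads (77.8 and 211 CPM) and was lower in replicate 1 (log2 -1.43, adjusted p = 1.87e-10, Fisher's exact test), with a length-adjusted log2 ratio of 0.04. Lss, lanosterol synthase, had 30 and 49 reads (35.3 and 89.9 CPM) and was lower in replicate 1 (log2 -1.32), with a length-adjusted log2 ratio of -0.12 that did not pass. Sqle was read almost without other forms: Sqle-201 held 57 of 59 full-length reads in replicate 1 and all 115 in replicate 2.

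From lanosterol to cholesterol, 8 members were read, with Msmo1 the highest by reads in replicate 1 and Dhcr7 in replicate 2. Cyp51, the lanosterol demethylase, had 93 and 196 reads (110 and 359 CPM) and was lower in replicate 1 (log2 -1.70, adjusted p = 9.10e-22, Fisher's exact test; length-adjusted -0.24, not passing). Msmo1, the methylsterol oxidase, had 373 and 282 reads, 439 and 517 CPM (mean 478 ± 55.0, SD, n = 2), and did not pass on either scale, though it was lower in replicate 1 with known models alone (log2 -0.30, adjusted p = 0.0175, Fisher's exact test). It was at place 97.0 and 96.8. Sc5d, the sterol C5 desaturase, had 105 reads in each library (124 and 193 CPM); it was lower in replicate 1 before adjustment for length (log2 -0.63) and higher after it (0.57). Ebp, the sterol isomerase, had 47 reads in replicate 1, 55.4 CPM, and 3 in replicate 2, 5.50 CPM. It was higher in replicate 1 on both scales (log2 3.12, adjusted p = 4.15e-07, Fisher's exact test; length-adjusted 2.54, adjusted p = 0.000197, exact binomial test). With 3 reads in replicate 2, the ratio of CPM was 10.1 with an exact 95% counting interval of 3.24 to 50.5. The sterol reductase Tm7sf2 had 11 and 6 reads, the C4 dehydrogenase Nsdhl 35 and 19 and the 3-ketosteroid reductase Hsd17b7 12 and 12, and none of these passed on either scale. Vps51 overlaps Tm7sf2 on the same strand and had 45 and 113 reads.

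Dhcr7, which makes cholesterol from 7-dehydrocholesterol (chromosome 7, 143823145 to 143848410, plus strand), had 153 reads in replicate 1, 180.3 CPM, and 976 in replicate 2, 1790 CPM. It was at 0.101 times the level of replicate 2 in replicate 1 (log2 -3.30, adjusted p = 2.77e-236, Fisher's exact test), and the length-adjusted log2 ratio was -1.86 (adjusted p = 5.92e-64, exact binomial test). The length used for it, 2729 bases, rests on 3 known reads, while its most used model is 2503 bases long. It was at place 97.0 in replicate 1 and 99.4 in replicate 2, so it stood high for its length in both. It held 2.71% of the members' reads in replicate 1 and 20.0% in replicate 2.

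Almost no Dhcr7 read matched an annotated transcript in full: 0 of 153 in replicate 1 and 3 of 976 in replicate 2. The class called incomplete splice match (ISM), a model with part of the junctions of an annotated transcript, held 138 reads in replicate 1 (90.2%) and 894 in replicate 2 (91.6%). The most used model, with 78 and 713 reads, has 8 exons and starts at 143830077, in the exon that ends at 143830265, which is joined to the exon at 143836638 that holds the start codon at 143836644. It holds the whole coding sequence and lacks the upstream first exons of the annotated coding forms. The most upstream of those (143823167 to 143823540) was touched by 0 reads in replicate 1 and 2 in replicate 2, and the next (143829626 to 143829739) by 0 and 2. The exon at 143830077 to 143830265, itself a first exon of another annotated form, was in 90 of 153 reads (58.8%) and 786 of 976 (80.5%). Among models with a complete coding sequence, 78 of 86 reads in replicate 1 (90.7%) and 717 of 781 in replicate 2 (91.8%) had this leader, a single intron between that exon and the start codon exon; it is found in 1 annotated form, whose 3′ end is incomplete. Class shares of the pathway move with this gene: ISM held 9.89% of all members' reads in replicate 1 and 27.3% in replicate 2, and 7.65% and 11.2% without Dhcr7. Over all annotated genes ISM held 12.6% in replicate 1 and 10.2% in replicate 2.

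The RefSeq promoter window that ends inside the exon where most Dhcr7 models began (chr7:143829964-143830263, plus strand) is shown with matches to the same motifs in capitals. Its RefSeq start, 143830214, lies inside that exon, downstream of the first base of the most used model. It held 2 CCAAT and 3 GGGCGG matches, and 0 to the sterol core. Both CCAAT matches and the last GGGCGG lie inside the exon and not upstream of the model's first base. They do lie upstream of the RefSeq start, and the files do not show at which start the molecules began.
Dhcr7 promoter: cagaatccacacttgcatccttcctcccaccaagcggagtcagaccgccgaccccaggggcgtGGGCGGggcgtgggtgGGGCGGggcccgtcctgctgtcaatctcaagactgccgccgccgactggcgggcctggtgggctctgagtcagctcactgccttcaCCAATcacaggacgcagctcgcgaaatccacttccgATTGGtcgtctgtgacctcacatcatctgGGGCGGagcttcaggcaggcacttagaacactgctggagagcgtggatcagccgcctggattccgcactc

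**Figure D3:**
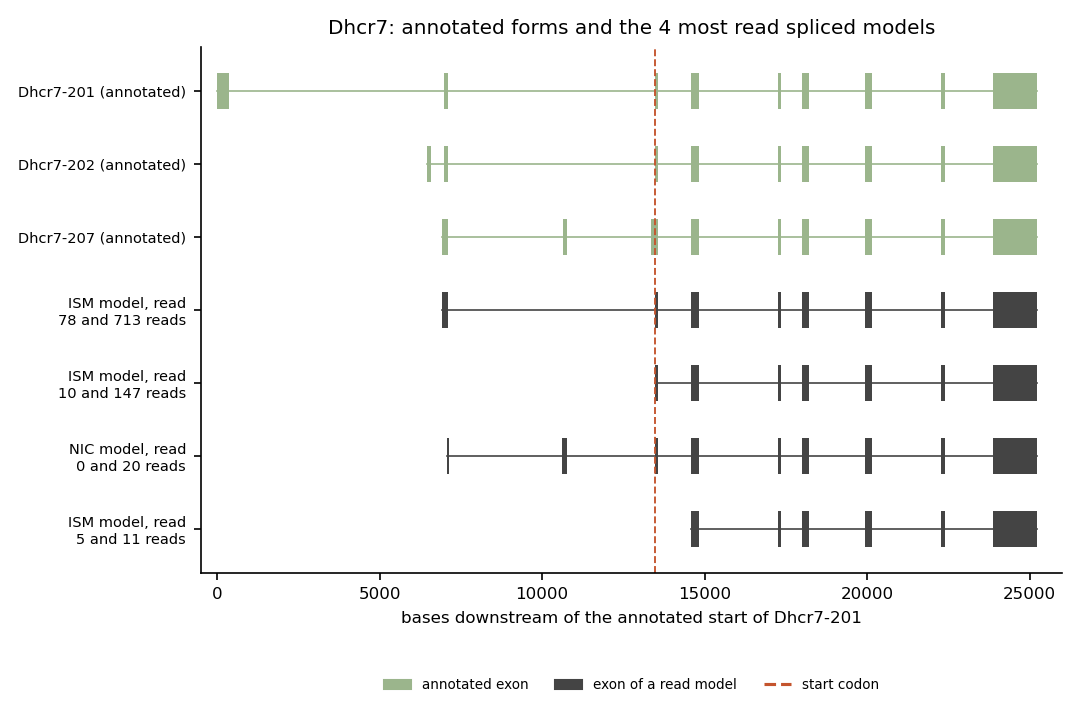
Exons of 3 annotated Dhcr7 forms (green) and of the 4 most read spliced models (dark) in bases downstream of the most upstream start, with reads in replicate 1 and then replicate 2; the dashed line is the start codon. The model with 78 and 713 reads begins at the first exon of the lowest annotated form and skips that form's second exon.

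A second Dhcr7 model, with 10 and 147 reads, begins at 143836651, past the start codon. Reads in models with the complete coding sequence were 86 of 153 in replicate 1 (56.2%, exact 95% interval 48.0% to 64.2%) and 781 of 976 in replicate 2 (80.02%, 77.4% to 82.5%). The intervals did not overlap. In replicate 1, 35 reads were in an unannotated single-exon model that covers the last exon alone. Such models were not matched between the libraries, so no count of replicate 2 is set beside it. Model ends are shared between reads, so where single molecules began is not given by the files.

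All 7 genes of sterol sensing were lower in replicate 1, but after adjustment for length 2 were lower and 5 did not pass, and under TMM scaling 5 were lower. All 7 had lengths of 2000 bases or more, where 54.3% of all genes tested were lower. Over genes of any length 36.6% were lower before adjustment, 19.8% after it and 27.6% under TMM scaling. Srebf1, which encodes SREBP-1 and is best known for fatty acid synthesis genes (chromosome 11, 60199089 to 60222581, minus strand), had 21 reads in replicate 1, 24.7 CPM, and 161 in replicate 2, 295 CPM. It was lower in replicate 1 on both scales (log2 -3.52, adjusted p = 2.56e-42, Fisher's exact test; length-adjusted -2.17, adjusted p = 2.88e-14, exact binomial test), at place 67.6 and 94.6. Srebf2, which encodes SREBP-2, the factor best known for cholesterol genes, had 20 and 27 reads (23.6 and 49.5 CPM; log2 -1.04, length-adjusted -0.11, which did not pass). Scap, the escort, had 42 and 72 reads (49.5 and 132 CPM), Insig1 61 and 147 (71.9 and 270 CPM) and Insig2 25 and 56 (29.5 and 103 CPM), and none of these 3 passed once length was adjusted. Of the proteases that release SREBP, Mbtps1 (site-1 protease) had 16 and 82 reads (18.9 and 150.4 CPM; log2 -2.93, length-adjusted -1.58, adjusted p = 2.88e-05, exact binomial test) and Mbtps2 (site-2 protease) 3 and 8 reads, 3.53 and 14.7 CPM, a ratio of 0.241 with an exact 95% counting interval of 0.0412 to 1.004.

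Srebf1 has 2 alternative first exons, known as 1a and 1c, which give SREBP-1 proteins with different amino ends; the 1a protein is the stronger activator. Their coding parts are shown with the start codon in capitals: 91 bases in the upstream exon (60220453 to 60220543) and 19 in the downstream one (60210336 to 60210354), both on the minus strand of chromosome 11. Both continue into the same second exon.
Srebf1 1a first exon: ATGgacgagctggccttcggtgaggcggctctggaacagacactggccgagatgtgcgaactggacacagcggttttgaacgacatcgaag
Srebf1 1c first exon: ATGgattgcacatttgaag
The upstream exon was joined to the shared exon in 9 reads and the downstream one in 3 reads in replicate 1, a 1a share of 75% (exact 95% interval 42.8% to 94.5%). In replicate 2 the counts were 73 and 64, a share of 53.3% (44.6% to 61.9%). Both forms were thus present in the gland, at like counts in replicate 2, and the 12 reads of replicate 1 cannot place the share. The chain of the 1c type from first to last exon was read as an unannotated combination of known sites with 2 and 53 reads, since the annotated 1c form ends early; the annotated 1a form had 8 and 56 reads.

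The promoter windows of the 2 first exons are shown side by side (chr11:60220578-60220877 for 1a and chr11:60210422-60210721 for 1c, both minus strand, written in the direction of transcription), with motif matches in capitals. The 1a window held 3 GGGCGG matches and 0 CCAAT, and the 1c window 2 GGGCGG and 1 CCAAT; neither held TCACNCCAC or CACGTG.
Srebf1 1a promoter: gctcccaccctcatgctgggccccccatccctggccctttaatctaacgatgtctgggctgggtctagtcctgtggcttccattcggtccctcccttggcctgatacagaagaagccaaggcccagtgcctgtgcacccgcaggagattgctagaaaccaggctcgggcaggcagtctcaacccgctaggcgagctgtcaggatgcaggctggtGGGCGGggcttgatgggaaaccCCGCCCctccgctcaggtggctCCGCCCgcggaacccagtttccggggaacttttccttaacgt
Srebf1 1c promoter: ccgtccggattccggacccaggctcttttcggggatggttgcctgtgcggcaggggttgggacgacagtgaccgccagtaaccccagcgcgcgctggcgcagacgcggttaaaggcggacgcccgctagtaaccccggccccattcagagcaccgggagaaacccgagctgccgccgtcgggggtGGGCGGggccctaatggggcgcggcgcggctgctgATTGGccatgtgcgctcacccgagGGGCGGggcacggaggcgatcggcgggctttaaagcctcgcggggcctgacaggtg

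**Figure D4:**
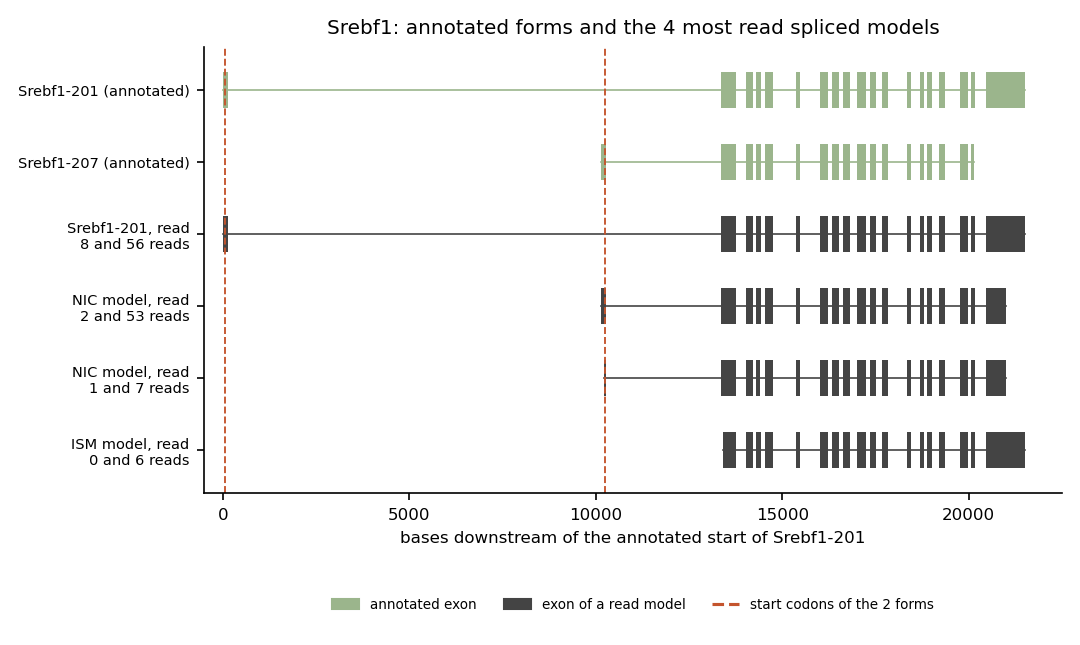
Exons of the annotated 1a and 1c forms in green and of the 4 most read spliced models in dark, in bases downstream of the annotated start of the 1a form, with reads in replicate 1 and then replicate 2; dashed lines are the start codons of both forms. The 1a model has 8 and 56 reads and the 1c model 2 and 53.

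Uptake, transfer and efflux was led by Apoe, the apolipoprotein that binds lipoprotein receptors and carries cholesterol out of cells (chromosome 7, 19696109 to 19699188, minus strand). Apoe had 2267 reads in replicate 1, 2671 CPM, and 164 in replicate 2, 301 CPM. It was 8.88-fold higher in replicate 1 (log2 3.15, adjusted p = 1.83e-294, Fisher's exact test), and the length-adjusted log2 ratio was 1.12 (adjusted p = 9.45e-26, exact binomial test). It was at place 99.8 and 99.4, so it was high for its length in both libraries. Apoe-206 held 96.2% of its full-length reads in replicate 1 and 91.9% in replicate 2. Npc2, which hands cholesterol from lysosomal lipoprotein to Npc1, had 332 reads in replicate 1, 391 CPM, and 36 in replicate 2, 66.0 CPM (log2 2.55, adjusted p = 2.51e-35, Fisher's exact test). Its length-adjusted log2 ratio of 3.96 rests on an annotated length of 3299 bases for its most used form. With the inner end that another annotated form has, it would be 1369 bases, and the 530 genes in the length range around that value had a median log2 ratio of 2.11.

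Macrophages also make Apoe, and their markers were read with those of other cell types. The 8 macrophage genes summed to 1144 CPM in replicate 1 and 319 CPM in replicate 2; 5 were higher in replicate 1, 3 were lower, and 0 of 8 passed once length was adjusted. All 8 had reads in both libraries. The 5 higher ones were 1040 to 1316 bases long, and the 3 lower ones 3233 bases or more. Of all genes under 2000 bases 63.1% were higher, and of those of 2000 bases or more 54.3% were lower. At any length, 64.4% of genes tested passed before adjustment and 40.9% after it. Lyz2 led with 648 and 141 CPM, followed by C1qa with 179 and 9.17 CPM. Of the 5 adipocyte markers 3 were higher in replicate 1, 2 after adjustment for length, and the sum was 218 and 45.9 CPM; Plin1 led with 84.8 and 42.2 CPM, Cfd had 85 and 0 reads, and Lep had 0 in both. The 4 capsule and stroma markers summed to 430 CPM in replicate 1 and 222 CPM in replicate 2, led by Dcn with 369 and 86.2 CPM and Col1a2 with 31.8 and 67.9 CPM. Of these 4, 1 was higher in replicate 1 (Dcn) and 2 were lower, and after adjustment for length 1 was higher and 1 lower. The 5 endothelial markers summed to 192 CPM in replicate 1 and 961 CPM in replicate 2, led by Plvap with 96.6 and 389 CPM and Tie1 with 14.1 and 270 CPM. Of these 5, 4 were lower in replicate 1, and 3 after adjustment for length. Their part in the values of the cholesterol genes was not tested.

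The other genes of this step had at most 42 reads in a library. Lrp1, a large receptor for Apoe, had 19 and 10 reads (22.4 and 18.3 CPM) and did not pass. Npc1, the lysosomal cholesterol exporter, had 9 and 18 reads (10.6 and 33.0 CPM) and was lower in replicate 1 before adjustment for length (log2 -1.55). Stard4, a cytosolic sterol carrier, had 8 and 17 reads and was likewise lower before adjustment (log2 -1.63), and Stard3, a late endosomal sterol carrier, had 42 and 41 reads (49.5 and 75.2 CPM) and did not pass. Abca1, the efflux pump, had 5 and 6 reads, of which 5 and 5 were in genomic models without a matching splice structure, so its level rests on no known read.

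Cholesterol ester turnover showed high Soat1. Soat1, the acyltransferase that makes cholesterol esters (chromosome 1, 156424525 to 156474331, minus strand), had 420 reads in replicate 1, 495 CPM, and 313 in replicate 2, 574 CPM (mean 534 ± 56.0, SD, n = 2). Its ratio did not pass (log2 -0.21, adjusted p = 0.0731, Fisher's exact test), nor did it under TMM scaling (log2 0.22, adjusted p = 0.066, exact binomial test). It was higher in replicate 1 after adjustment for length (log2 0.53, adjusted p = 6.24e-06, exact binomial test). With known models alone, and no adjustment for length, it was called lower in replicate 1 (log2 -0.60, adjusted p = 1.4e-05, Fisher's exact test), so its direction depends on the processing. It was at place 99.4 and 98.6. Lipe, hormone-sensitive lipase, which frees cholesterol from stored esters in steroid-making cells, had 8 reads in replicate 1, 9.43 CPM, and 68 in replicate 2, 125 CPM, and was lower in replicate 1 on both scales (log2 -3.59, adjusted p = 6.00e-19, Fisher's exact test; length-adjusted -2.05, adjusted p = 9.62e-06, exact binomial test). Lipe is also high in adipocytes, whose markers are given above, and the part of these cells in its values was not tested. Lipa, lysosomal acid lipase, had 102 and 157 reads (120 and 288 CPM) and was lower in replicate 1 before adjustment (log2 -1.25) and not after it (0.12).

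The forms of Soat1 differed between the libraries. The coding form of 8371 bases and 16 exons held 162 of 267 full-length reads in replicate 1 (60.7%) and 226 of 271 in replicate 2 (83.4%; adjusted p = 1.98e-07, Fisher's exact test). A retained-intron form of 509 bases and 4 exons had 74 reads in replicate 1 and 3 in replicate 2. Genes under 750 bases had a median log2 ratio of 3.48, replicate 1 over replicate 2. The part of length in the difference between the Soat1 forms was not tested. A further 119 and 24 reads fell in genomic models, of which 102 in replicate 1 and 23 in replicate 2 touched the last exon of 6591 bases. Models with the complete coding sequence held 39.0% of its reads in replicate 1 and 74.1% in replicate 2.

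Use of the most used model could be compared for 18 members with at least 20 full-length reads in each library. It differed for 3, Acly, Fdps and Soat1, beside 9.84% of all 2186 genes tested. The shares of the other 15 did not differ past the threshold and ran from 51.9% for Hmgcs1 to 99.1% for Npc2 in replicate 1 and from 56.7% for Hmgcs1 to 100% for Fdft1 and Sqle in replicate 2. With incomplete models counted as well, 8 of 25 members differed, Dhcr7 among them, beside 27.0% of genes.

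A read was counted as complete when its model spans an annotated coding sequence from start to stop codon with the same introns, for coding forms of at least 60% of the longest. Complete models held 83.8% of the members' reads in replicate 1 and 79.0% in replicate 2, and 76.8% and 77.1% over all annotated genes. Without Apoe the members' share was 74.1% in replicate 1, under that of all annotated genes, and 78.7% in replicate 2. Over genes with at least 20 reads in each library the median was 77.8% and 84.4% for 26 members and 74.6% and 82.4% for all 3051. Shares were highest for Pmvk, Apoe and Ebp in replicate 1 (100%, 98.2% and 97.9%) and for Sqle and Ebp in replicate 2 (100% each, from 115 and 3 reads). Few or no reads of some members were complete: such models held 0 of 19 and 0 of 10 reads of Lrp1, 0 of 9 and 0 of 18 of Npc1, and 0 of 20 and 2 of 27 of Srebf2. A retained-intron form of Srebf2 with 4 exons had 7 reads in each library. Scap was complete in 10 of 42 reads (23.8%) and 35 of 72 (48.6%). Srebf1 is understated by this measure at 38.1% and 34.8%, because the annotated 1c form lacks its end.

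**Figure D5:**
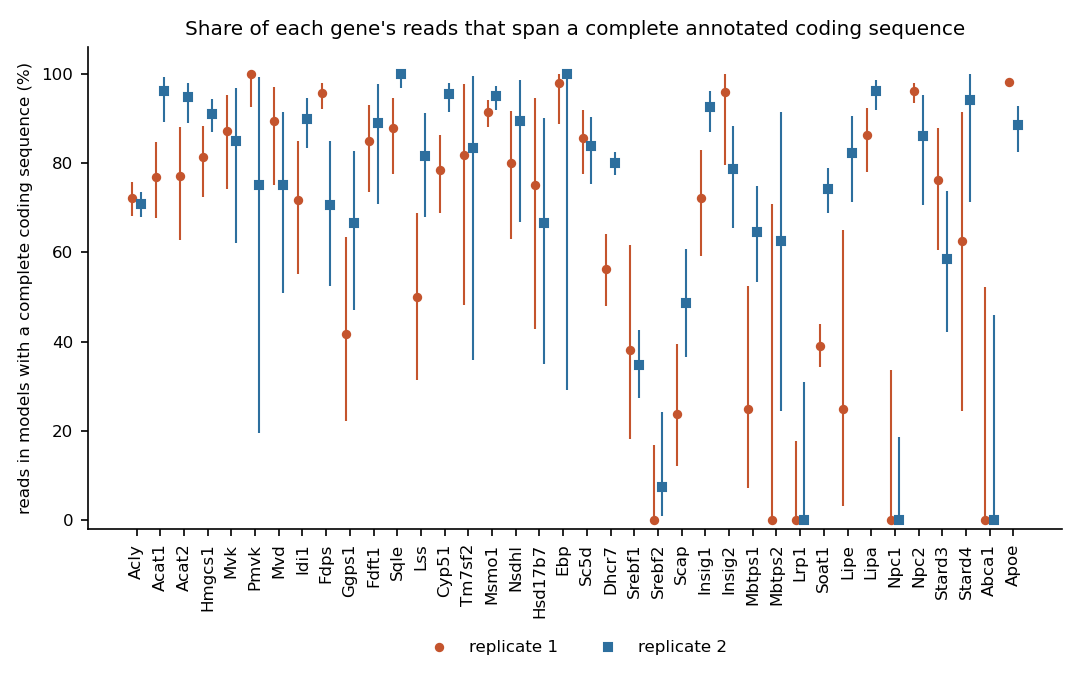
Percent of the reads of each gene in models that span a complete annotated coding sequence, in replicate 1 (circles) and replicate 2 (squares), with exact 95% intervals. Lrp1, Npc1 and Abca1 are at 0 in both libraries, and most synthesis enzymes lie above 70%.

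Beside the full-length forms named, 11 unannotated spliced models of members had at least 5 reads in each library. They were 4 of Acly, 3 of Dhcr7, 2 of Hmgcs1 and 1 each of Msmo1 and Soat1. The Soat1 model, with 15 exons and 2894 bases, had 7 reads in each library and the Hmgcs1 model with a new combination of known sites 6 and 11.

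Genes of related pathways were read from lists of other genes. Of 13 fatty acid synthesis genes that SREBP controls, 10 were lower in replicate 1, 1 was higher (Thrsp, named after its value was seen, 97.8 and 3.67 CPM) and 2 did not pass, and their share of reads was 0.345% in replicate 1 and 1.27% in replicate 2. The desaturase Fads2 led with 1179 and 5348 CPM, followed by the malic enzyme Me1, which supplies NADPH, with 551 and 3875 CPM. After adjustment for length 6 of the 13 were lower, 2 higher, 4 did not pass and 1 was not tested. Of the 6, Fasn (named after its value was seen) was adjusted at 976 bases, the annotated length of its known reads. Genes of 750 to 1000 bases had a median log2 ratio of 3.32. The ratio of Fasn was -1.10, so its call rests on that length. Of 13 genes that use isoprenoids for ubiquinone, dolichol and protein prenylation, 2 were higher, 2 lower and 9 did not pass, led by the prenyltransferase subunit Fnta with 266 and 91.7 CPM and the ubiquinone enzyme Coq2 with 138 and 69.7 CPM. After adjustment for length 3 of these were higher and 2 lower. Of 15 genes of sterol control and transfer in the endoplasmic reticulum, 2 were higher, 8 lower, 3 did not pass and 2 had too few reads, led by the tethering protein Vapa with 487 and 251 CPM. The balance of these calls turned with adjustment for length, after which 4 were higher, 1 was lower, 7 did not pass and 3 were not tested. Of 7 liver X receptor genes and targets, 3 were lower, 3 did not pass and 1 (Mylip, named after its value was seen, 0 and 8 reads) was not tested, led by Lpcat3 with 133 and 216 CPM and Nr1h2 with 90.7 and 154 CPM. After adjustment for length 1 of these was higher and 1 lower. Among all genes tested, 27.9% were higher in replicate 1 and 36.6% lower before adjustment, and 21.1% were higher and 19.8% lower after it. No list was tested against all genes, so these counts describe the libraries. Whether a pathway stands out was not tested.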

How the data were processed

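For each library the authors deposited a table of raw read counts, one row per transcript model, with a file of model structures. Per the deposited text these rest on mm10 (GRCm38) and GENCODE M21, and the deposited structures name TALON as the source of unannotated models. No aligner is named there. The members and lists were chosen with earlier results of these data known; the complete coding measure, the exon counts and the 5′ leaders were defined after values were seen. Every member is named, and of each other list the 2 genes of highest mean level and any gene without a read; 1 gene so chosen is not reported here.

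Gene counts were sums over models, scaled to CPM by the library totals (848782 and 545229 reads). Known, NIC (known splice sites, new combination) and NNC (a new splice site) models are called full-length. Fisher's exact test (two-sided) was used for genes of at least 10 reads, with Benjamini-Hochberg adjustment at 0.05; it takes reads as independent and compares libraries, not conditions. Log2 ratios had 1 CPM added, which understates low genes. TMM (edgeR 4.0.16) and DESeq2 (1.42.0) factors and the length adjustment used an exact binomial test, and the test was checked on simulated counts. Whether counting used strand is not stated. Intervals are exact (Clopper-Pearson or Poisson, 95%) and, like the floor of 3 counts, cover counting error only. Python 3.11.15, SciPy 1.17.1 and R 4.3.3 were used. Coordinates count from 1. Promoters are from RefSeq (GRCm38.p6) and coding stretches from GENCODE M21.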

Additional observations from a re-analysis of the deposited data

Results flagged for a closer look

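Antisense models, which enter no comparison above, were read over Soat1. They held 120 reads in replicate 1 and 44 in replicate 2, past the floor of 3 counts. Of these, 118 and 39 reads touched the last exon of Soat1, and 120 and 42 were in models of a single exon. Soat1 itself had 420 and 313 reads. Gm37648, annotated on the other strand of the same place, had 0 reads in both libraries. Whether the counting used strand is not stated, so the strand of these reads cannot be checked here. The antisense reads of all 38 genes summed to 167 in replicate 1 and 64 in replicate 2, spread over 22 genes.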

How the results depend on the processing

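With the length trend removed, 8 members were lower in replicate 1 in place of 21, the one count of higher or lower members that moved by over 1.5 times. The log2 ratio changed sign there for Acat1 (1.29), Mvk (-0.40), Mvd (-0.22), Fdps (-0.10), Ggps1 (0.45), Sqle (0.036), Tm7sf2 (-1.56), Msmo1 (0.20), Hsd17b7 (0.61), Sc5d (0.57), Soat1 (0.53) and Lipa (0.12). With TMM or DESeq2 factors it changed sign for Acat1 (0.21 and 0.22), Msmo1 (0.20 and 0.21) and Soat1 (0.22 and 0.23), none of which passed; Mvk and Fdft1 were then called higher. With incomplete models counted, 8 members differed in the use of a model in place of 3; the difference in share turned for Msmo1 (-2.40 points) and Insig1 (0.47 points), and for Idi1 with known models alone (1.69 points). With no filter, at least 50 reads, known models alone, or known, NIC and NNC reads alone, 5 members were higher and 18 to 20 lower. In that order, 38, 30, 33 and 34 members were tested, and 37.5%, 83.4%, 75.6% and 74% of all genes tested passed. With known models alone, Acat1 (-0.54), Msmo1 (-0.30) and Soat1 (-0.60) were also called lower, and Srebf2 no longer passed. Among calls with all reads, that of Sc5d turned with length adjusted; those of Acat1 and Soat1 were opposite between known models alone and length adjusted. Each share in a single library lies within 1 SD of the mean of both by construction, so leaving out a replicate tests nothing. Genes under about 20 reads are limited by counting. No paired analysis was possible because there is 1 group.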
